A study of Mus musculus with 12 samples.

Results

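The genes described here are the mouse collagens, laminins, nidogens, perlecan, fibronectin and Sparc, the structural proteins of the extracellular matrix and of its sheet-like form, the basement membrane. They were chosen by symbol, namely every gene named Col, number, a, number, every laminin alpha, beta or gamma chain, and Nid1, Nid2, Hspg2, Fn1 and Sparc. Of the 18193 genes with a probe set assigned to 1 gene, 57 carried such a symbol, and the brightest probe set of each in each tissue stood for it. Another 3 genes that fit the names were not analysed here. The 57 were 11 fibrillar collagens, the 6 collagen IV chains, 25 other collagens, 10 laminin chains and a group of 5 linker and adhesion proteins.

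RNA was profiled on 12 Affymetrix mouse arrays after loss of Sephs1, which encodes SPS1, a protein related to the enzyme that makes selenophosphate. Livers came from male C57BL/6 mice aged 3 months, 3 controls and 3 mice in which Cre recombinase under the albumin promoter removed the gene in hepatocytes. That promoter is known to act in hepatocytes and not in stellate or endothelial cells, and the arrays of whole liver do not measure the gene by cell type. F9 cells, a male embryonal carcinoma line derived from a testicular teratoma of strain 129, were compared as 3 control and 3 knockdown samples carrying a short hairpin RNA against SPS1.

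Collagen chains wind into triple helices in the endoplasmic reticulum, where hydroxylases modify them and a dedicated chaperone accompanies them. Fibrillar collagens then assemble into cables, whereas collagen IV and the laminins polymerise into separate networks that nidogen and perlecan join into a basement membrane. In liver most fibrillar collagen is made by stellate and portal mesenchymal cells, while hepatocytes secrete plasma fibronectin and collagen XVIII. F9 cells are a classic source of basement membrane proteins, because retinoic acid turns them into endoderm that secretes laminin and collagen IV.

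Sephs1 itself was 4.61-fold lower in the knockdown, at 7.80 ± 0.04 against 10.002 ± 0.055 log2 units (SD, n = 3 and 3, limma adjusted p = 1.3e-05). In the livers labelled knockout its signal was 10.03 ± 0.13 against 9.84 ± 0.10 in controls, a difference of 0.19 (adjusted p = 0.789), so the arrays did not show its loss there. The labels do not say which exons were removed, and a probe set outside them would not show the deletion. The 9 hepatocyte markers averaged 15.03 in control and 15.29 in knockout livers, and the 8 pluripotency markers averaged 11.85 and 12.01 in control and knockdown F9 cells. Only 1 of 12 endoderm markers in F9 was brighter than the median gene. That gene was Sox7, an endoderm transcription factor, which rose by 0.71 on knockdown (adjusted p = 0.0015). Over the 12 endoderm markers 7 differences were positive and 5 negative, with a median of 0.02. Of the 8 pluripotency markers 7 differences were positive and 1 negative, with a median of 0.13. Among them Esrrb rose at an adjusted p under 0.05.

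In F9 cells 1 of the 57 matrix genes passed an adjusted p under 0.05 over all genes. It was the laminin chain gene Lamb1, which fell, and it made up 1.75% of the members, where 7.2% of all genes passed, 2.56% rising and 4.64% falling. An unadjusted p under 0.05 was reached by 7 members, 3 higher and 4 lower, against 20.9% of all genes, 8.92% higher and 12% lower. Knockdown arrays lay wholly above control arrays for 5 members and wholly below for 5, where this held for 12.2% and 15.7% of all genes, 27.9% together. Of the 57 differences 21 were positive, or 32 without the first control array, where 46.8% of all genes had a positive difference. The differences (knockdown minus control) ran from −0.35 to 0.29 with a median of −0.05, beside −0.01 over all genes. For all 57 the 95% interval lay within a 2-fold change in either direction. Labels describe the F9 arrays as biological replicates without stating separate cultures, so these p-values measure the spread between these samples.

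**Figure D1:**
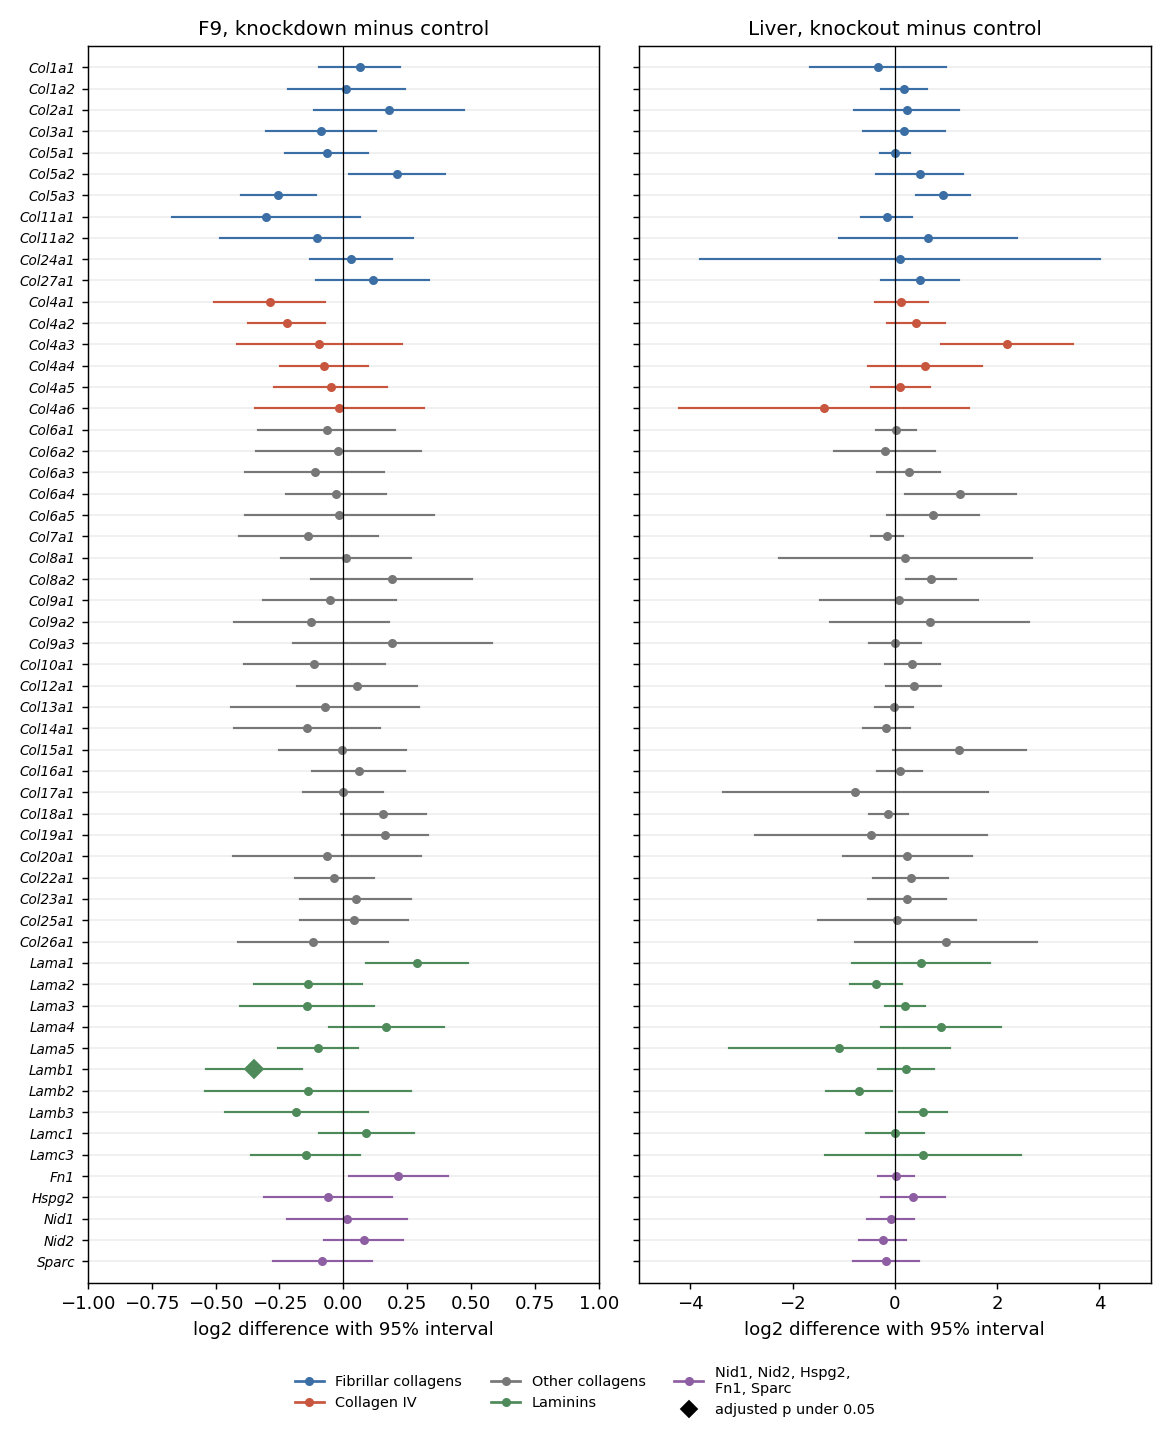
Treated minus control for each of the 57 matrix genes in log2 units, with 95% intervals, in F9 cells (left) and in liver (right), coloured by class; a diamond marks an adjusted p under 0.05. The left axis covers a narrower range than the right one. Only Lamb1 in F9 carries a diamond, and the F9 differences all lie between −0.35 and 0.29 while the liver ones run from −1.39 to 2.20.

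Among the laminin chains, which form trimers of an alpha, a beta and a gamma chain, only Lamb1 passed the threshold in F9 cells. Its signal was 9.38, 9.53 and 9.52 in the controls and 9.24, 9.09 and 9.05 in the knockdown samples. Every knockdown value lay below every control value. The difference was −0.35 with a standard error of 0.08, a 1.27-fold decrease (adjusted p = 0.040). The call was near the threshold: the adjusted p ran from 0.025 to 0.156 when single arrays were left out, and Lamb1 passed in 8 of 14 alternative analyses. Lamb1 had 4 probe sets, and the others differed by −0.52, −0.28 and, for the dimmest, 0.18.

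The partners of beta 1 in the classic laminin trimer did not pass the threshold. Lama1, the alpha 1 chain, had signals of 8.34, 8.36 and 8.41 in controls and 8.81, 8.66 and 8.52 in knockdown samples, so that all knockdown values were the higher ones. That difference of 0.29 (95% interval 0.09 to 0.49) did not pass (adjusted p = 0.094), though it did in 3 of 14 alternative analyses. Lamc1, the gamma 1 chain shared by most laminins, read 9.07, 9.26 and 9.10 in controls and 9.31, 9.15 and 9.24 in knockdown samples, which overlapped. Its difference was 0.09 (95% interval −0.10 to 0.28, adjusted p = 0.608). A second and dimmer Lamc1 probe set differed by −0.34 with a standard error of 0.27. Lama5, the alpha 5 chain of most mature basement membranes, was at 7.10 ± 0.05 in controls and 7.0 ± 0.06 in knockdown samples, a difference of −0.10 (adjusted p = 0.475). Over the 10 laminin chains 3 differences were positive, 7 negative and the median was −0.14.

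The 2 major collagen IV chains, alpha 1 and alpha 2, which make the collagen network common to all basement membranes, were both lower in the knockdown without passing the adjusted threshold. Col4a1 read 9.11, 9.09 and 8.89 in controls and 8.64, 8.69 and 8.88 in knockdown samples. The lowest control and the highest knockdown array were nearly level, and the difference was −0.29 (95% interval −0.51 to −0.07, adjusted p = 0.121). A second Col4a1 probe set differed by −0.22. Col4a2 read 7.46, 7.41 and 7.35 in controls and 7.17, 7.16 and 7.23 in knockdown samples, which did not overlap. Its difference was −0.22 (95% interval −0.37 to −0.07, adjusted p = 0.089). All 6 collagen IV chains had negative differences, with a median of −0.08, and this held after quantile normalization and median centring. Without the first control array 4 of 6 were negative, and the tissue-restricted chains Col4a3 and Col4a6 turned to 0.07 and 0.11. With array weights 4 of 6 were negative, and 5 of 6 when any single knockdown array was left out. Only 2 of the 6 chains, Col4a1 and Col4a2, were brighter than the median gene.

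Col4a1 and Col4a2 lie head to head and share a promoter, so the bases between and around their starts are shown, together with the promoter of Lamb1, the chain that passed. Both are RefSeq sequences on GRCm38.p6, plus strand. The Lamb1 window is chr12:31265043-31265342, from 250 bases before to 50 after the gene start, and the collagen window is chr8:11312755-11312854, from 50 before to 50 after the Col4a2 start, 21 bases from the Col4a1 start. Capitals mark matches, on either strand, to the GC box GGGCGG, the CCAAT box CCAAT and the CTC box CCCTCCCC.
Lamb1: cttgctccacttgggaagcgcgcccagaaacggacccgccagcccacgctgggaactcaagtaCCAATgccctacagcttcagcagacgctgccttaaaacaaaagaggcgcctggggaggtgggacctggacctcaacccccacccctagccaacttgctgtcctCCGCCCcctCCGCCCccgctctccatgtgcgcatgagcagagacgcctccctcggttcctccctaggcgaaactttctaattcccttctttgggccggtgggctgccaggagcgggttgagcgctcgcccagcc
Col4a1 and Col4a2: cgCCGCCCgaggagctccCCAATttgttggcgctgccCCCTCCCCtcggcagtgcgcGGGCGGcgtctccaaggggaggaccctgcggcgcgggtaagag
The Lamb1 window held 2 GC boxes and 1 CCAAT box and the collagen window 2 GC boxes, 1 CCAAT box and 1 CTC box. In all 32851 promoter windows of 300 bases a GC box occurred in 35.7%, a CCAAT box in 37.4% and a CTC box in 10.8%. The 45 windows of the 41 matrix genes in that table held them in 60.0%, 33.3% and 28.9%. These matches describe the letters and say nothing of binding.

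None of the 5 linker and adhesion proteins passed in F9 cells on its brightest probe set. Fn1, fibronectin, read 10.76, 10.58 and 10.48 in controls and 10.87, 10.82 and 10.78 in knockdown samples. Its knockdown arrays were all higher, by 0.22 on average (adjusted p = 0.191). Nid1, which bridges laminin to collagen IV, differed by 0.02 (95% interval −0.22 to 0.25), and its relative Nid2 by 0.08 (−0.08 to 0.23). Hspg2, the heparan sulfate proteoglycan perlecan, differed by −0.06 (−0.31 to 0.19). Sparc, a collagen-binding secreted protein, differed by −0.08 (−0.28 to 0.11).

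**Figure D2:**
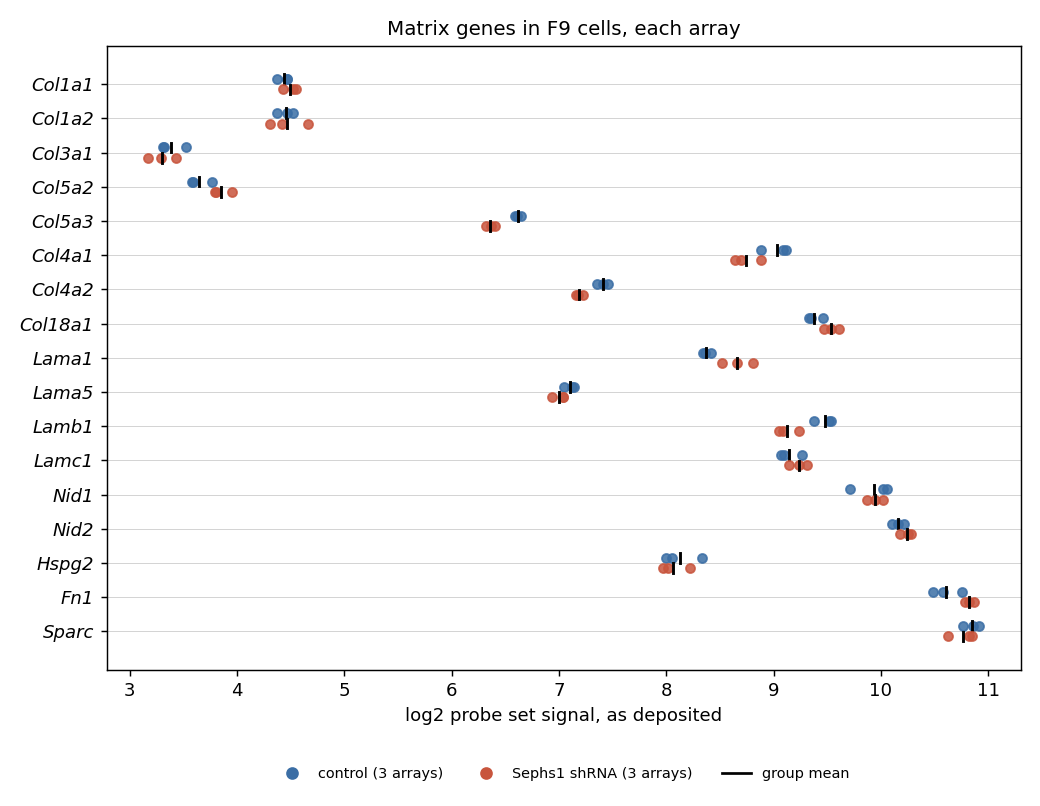
Log2 probe set signal of the main matrix genes in F9 cells on each array, control and knockdown (3 arrays each), with group means as bars; levels of different genes come from different probes and are not comparable. Knockdown points lie wholly left of control points for Lamb1, Lama5, Col4a1, Col4a2 and Col5a3, and wholly right for Lama1, Fn1, Col5a2 and Col18a1.

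The fibrillar collagens had 6 positive and 5 negative differences in F9 with a median of 0.01. Col5a3, a minor chain that joins collagen V molecules, read 6.61, 6.59 and 6.65 in controls and 6.32, 6.37 and 6.4 in knockdown samples. Its arrays did not overlap, and the difference of −0.25 missed the threshold (adjusted p = 0.052). Its relative Col5a2 stood at 0.21 (adjusted p = 0.190) and Col11a1, a cartilage fibril chain, at −0.30 (adjusted p = 0.340). The chains of the main tissue collagens were dim and moved little, Col1a1 by 0.06 (95% interval −0.09 to 0.22), Col1a2 by 0.01 and Col3a1 by −0.09. Of the 25 other collagens 9 differences were positive, or 18 without the first control array, and none reached an unadjusted p under 0.05. Col18a1, a basement membrane collagen and the source of endostatin, read 9.46, 9.33 and 9.35 in controls and 9.53, 9.61 and 9.47 in knockdown samples. These values did not overlap, with a difference of 0.16 (adjusted p = 0.274). The other Col18a1 probe set stood at −0.07. Col19a1, a minor collagen of muscle basement membranes, stood at 0.16 (adjusted p = 0.261).

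Probe sets of the same matrix gene could differ. When the 112 probe sets of these genes were tested one by one in F9, 3 passed, where 4.58% of all 34945 probe sets did (0.0143% in liver, none of them of matrix genes), and in each case another probe set of the gene had been the brightest. A second Sparc probe set read 9.61, 9.46 and 9.39 in controls and 8.92, 9.01 and 9.10 in knockdown samples. It fell by 0.47 (adjusted p = 0.022), while the third Sparc probe set stood at 0.14. A second Hspg2 probe set read 6.93, 6.83 and 6.92 in controls and 7.26, 7.31 and 7.33 in knockdown samples, and rose by 0.41 (adjusted p = 0.017). A dimmer Col5a1 probe set read 5.77, 5.49 and 5.63 in controls and 5.17, 5.09 and 4.96 in knockdown samples, a fall of 0.56 (adjusted p = 0.018), while the brightest stood at −0.07. These 3 genes are named because their probe sets passed, and Col5a1 was picked after its values were seen. In this test neither the brightest Lamb1 probe set (adjusted p = 0.059) nor the second (adjusted p = 0.051) passed. All probe sets of a gene shared a sign in 18 of the 37 matrix genes with more than 1 in F9, and in 12 of the 37 in liver.

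**Figure D3:**
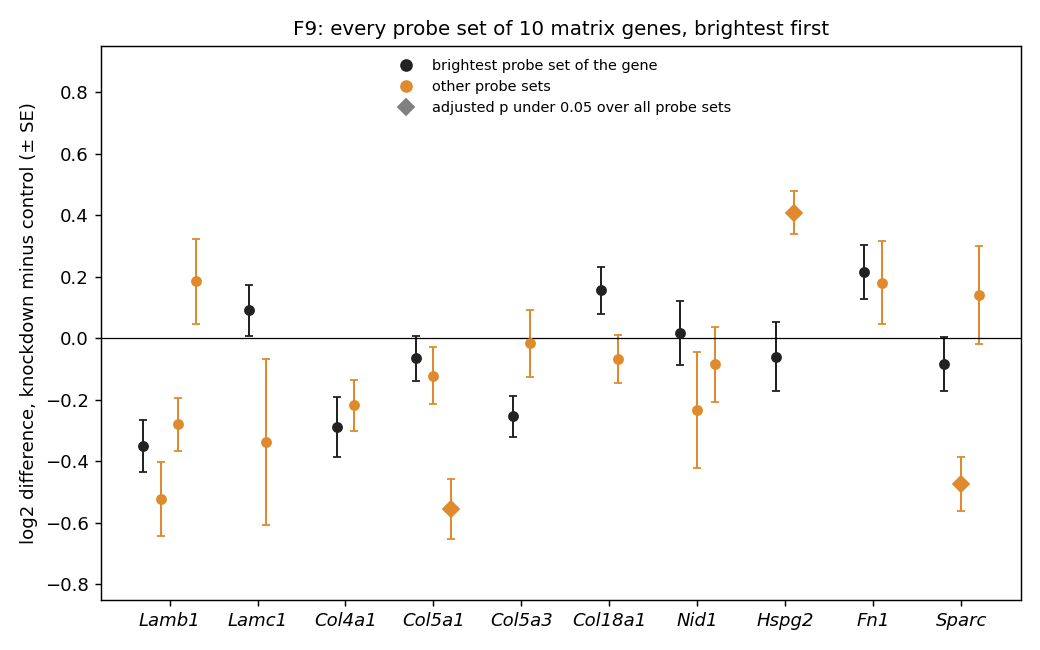
Knockdown minus control in F9, in log2 units with standard errors, for each probe set of 10 matrix genes, the brightest of each in black and diamonds marking an adjusted p under 0.05. The Lamb1 probe sets lie at −0.35, −0.52, −0.28 and 0.18, and the diamonds are the second probe sets of Hspg2 and Sparc and the third of Col5a1.

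Of 26 measured genes that modify, escort or trim collagen 4 fell in F9 cells and 0 rose, or 15.4%, beside 7.2% of all genes and 11.7% of genes brighter than the median, to which 16 of the 26 belong. The median over the list was −0.03. P3h4, a partner of the collagen lysyl hydroxylase and prolyl hydroxylase complex, read 9.22, 9.23 and 9.26 in controls and 8.0, 7.70 and 7.77 in knockdown samples. It fell by 1.41 (adjusted p = 0.000169). Serpinh1, the collagen chaperone HSP47, read 9.82, 9.86 and 9.85 in controls and 8.93, 9.08 and 8.91 in knockdown samples. It fell by 0.87 (adjusted p = 0.00055), and its second probe set by 0.95. Pcolce2, an enhancer of the protease that trims procollagen, read 9.91, 9.91 and 9.86 in controls and 9.04, 9.08 and 8.76 in knockdown samples. It fell by 0.94 (adjusted p = 0.00114). For these 3 genes control and knockdown arrays did not overlap, and each passed in all 14 alternatives. Colgalt1, which adds galactose to collagen, fell by 0.53 (adjusted p = 0.019) and passed in 9 of 14.

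**Figure D4:**
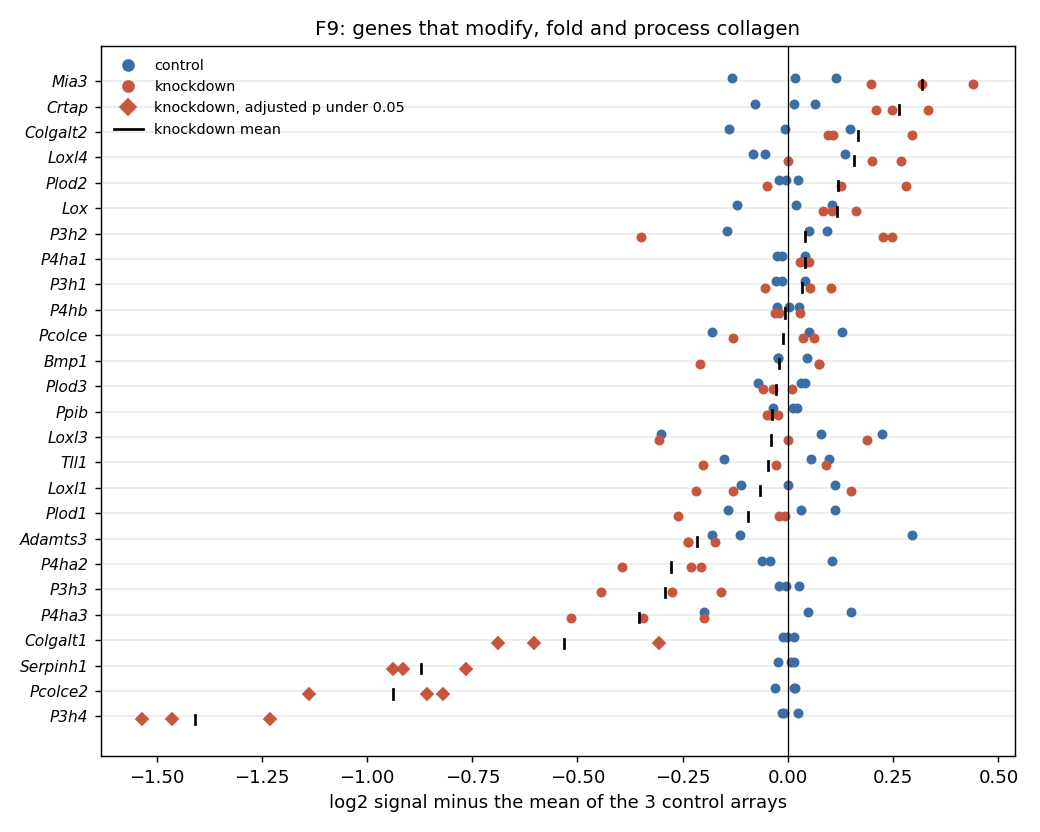
Log2 probe set signal minus the mean of the control arrays for 26 collagen processing genes on each F9 array (3 control, 3 knockdown), with the knockdown mean as a bar and diamonds for an adjusted p under 0.05. P3h4, Serpinh1, Pcolce2 and Colgalt1 show knockdown points wholly below control points.

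Other genes around the matrix moved in both directions in F9, and the shares below stand beside the same 7.2% of all genes and 11.7% of brighter genes. Of 23 measured matrix receptors, 10 of them among the brighter genes, 2 rose and 2 fell, or 17.4%. The integrin chains Itga8 and Itga9 rose by 0.53 and 0.32, and Itga3, a laminin receptor chain, fell by 0.73 (adjusted p = 0.013, 0.032 and 0.020). Their other probe sets moved less, at 0.08 for Itga8, 0.15 and 0.0068 for Itga9, and −0.12 and 0.0045 for Itga3. Sdc1, the heparan sulfate proteoglycan syndecan, fell by 0.66 (adjusted p = 0.00306). Of 19 measured genes of matrix degradation 2 passed, or 10.5%, with 5 of the 19 among the brighter genes. The urokinase receptor Plaur rose by 0.73 (adjusted p = 0.00584) and the metalloproteinase inhibitor Timp2 fell by 0.79 (adjusted p = 0.00425). Of 18 genes of TGF-beta signalling, a pathway that drives collagen synthesis in many tissues, 13 were among the brighter genes and 27.8% passed. Of these 3 rose, the coreceptors Tgfbr3 and Eng by 0.34 and 0.38 and the target Ccn2 by 0.49, and 2 fell, Smad3 by 0.36 and Ltbp3 by 0.32. The other probe sets of Tgfbr3 and Eng stood at 0.0037 and 0.88. In all alternatives run for them Sdc1, Plaur, Timp2 and Ccn2 passed, while Itga8 passed in 10 of 13, Itga3 in 11 of 14, Smad3 in 10, Eng in 9, Tgfbr3 in 8, and Itga9 and Ltbp3 in 7. Of 30 other matrix proteins none passed, and 5 had an unadjusted p under 0.05, where 20.9% of all genes did. The lists were drawn up with earlier results known.

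Some technical measures and a cell type marker moved with the knockdown. The spiked poly-A controls were lower by 0.99, and the actin 3′ minus 5′ signal was 1.33 in controls and 1.1 in knockdown samples. The GAPDH 3′ minus 5′ signal differed by −0.12. Each had an exact two-sided permutation p of 0.1, the smallest that 3 against 3 allows. Of 7 mesoderm and fibroblast markers Thy1 fell by 1.41 (adjusted p = 0.000396) and 3 had positive differences, with a list median of −0.06. The list mean, which includes Thy1, lay between 5.59 and 5.80 in controls and 5.46 and 5.55 in knockdown samples. Their part in the matrix results was not tested. The first control array was the highest of the 6 for 19 of the 38 members dimmer than the median gene, or 50%, where this held for 37.2% of all such genes. Without it 2 members passed, Fn1 and Lamb1, and the median over members was 0.02.

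In liver no matrix gene passed the adjusted threshold, where 8 of all genes did, or 0.044%, with 0.011% rising and 0.033% falling. An unadjusted p under 0.05 was reached by 6 members, 5 higher and 1 lower, against 7.28% of all genes, 4.08% higher and 3.2% lower. Knockout arrays lay wholly above control arrays for 5 members and wholly below for 2, where this held for 8.42% and 6.36% of all genes, 14.8% together. Of the 57 differences (knockout minus control) 40 were positive, with a median of 0.18, where 54.2% of all genes were positive and the median was 0.03. The within-group SD was larger than in F9, with a median over members of 0.34 against 0.13. Col24a1, dim in both tissues, read 0.49 to 5.33 on the liver arrays and 2.92 to 3.07 on the F9 arrays. Whether the processing of the separately deposited matrices had a part in this contrast was not tested. Only 27 of the 57 intervals excluded a 2-fold change in either direction, 19 of the 24 members brighter than the median gene and 8 of the 33 dimmer ones. In whole liver, fewer cells of a type and less RNA per cell cannot be told apart.

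The matrix proteins that hepatocytes secrete themselves did not pass in liver. Fn1 read 14.23, 14.35 and 14.46 in controls and 14.42, 14.22 and 14.47 in knockout livers, which overlapped fully, and differed by 0.02 (95% interval −0.33 to 0.38). Col18a1 read 12.86, 12.75 and 12.96 in controls and 12.68, 12.57 and 12.94 in knockout livers, a difference of −0.13 (−0.51 to 0.25). Among the fibrillar chains made by mesenchymal cells Col1a2 differed by 0.17 (−0.28 to 0.63), Col3a1 by 0.18 (−0.62 to 0.98) and Col1a1 by −0.33 (−1.66 to 1.00). The knockout livers read 7.09, 6.38 and 5.07 for Col1a1, and the controls 6.28, 6.78 and 6.48. These are brightest probe sets. Dimmer ones stood at 1.41 for Col1a1, −0.66 for Col3a1, and −0.23 and 0.15 for Col1a2.

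Col5a3 had the smallest p among the matrix genes in liver. It read 8.23, 8.48 and 8.85 in controls and 9.32, 9.65 and 9.40 in knockout livers, which did not overlap. The difference was 0.94 (95% interval 0.41 to 1.46), with an adjusted p of 0.393. A second and dim Col5a3 probe set stood at −0.55. In F9 the same brightest probe set was lower, at −0.25. The difference between the tissues was not tested, since the matrices were deposited separately.

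The collagen IV chains and laminins in liver gave no call either. Col4a1 differed by 0.13 (−0.38 to 0.64) and Col4a2 by 0.41 (−0.16 to 0.98). Col4a3, a chain of kidney and lung basement membranes, read 2.61, 3.27 and 3.34 in controls and 4.57, 4.92 and 6.34 in knockout livers. It was dim in both groups, its difference was 2.20 (adjusted p = 0.419), and its other probe set stood at −0.36. Lamb3, a chain of epithelial laminin, read 6.88, 7.33 and 6.75 in controls and 7.51, 7.56 and 7.54 in knockout livers. All knockout values were higher, by 0.55 on average (adjusted p = 0.634). Lamb2 was the reverse, at 6.00, 5.84 and 6.47 in controls and 5.63, 5.01 and 5.58 in knockout livers, a difference of −0.70 (adjusted p = 0.658). Lama5 stood at −1.09 (95% interval −3.24 to 1.07) on its brightest probe set and at 0.65 and 0.98 on the others.

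The remaining members named by the selection rule were no firmer in liver. Col8a2, a short-chain collagen of vessel and eye membranes, read 5.98, 5.44 and 5.62 in controls and 6.39, 6.2 and 6.56 in knockout livers, a difference of 0.70 (adjusted p = 0.552). Col6a4 stood at 1.28 (adjusted p = 0.635), Lama2 at −0.37 (adjusted p = 0.739), Nid2 at −0.24 (adjusted p = 0.800) and Col4a6 at −1.39 (adjusted p = 0.810). The dimmer probe sets of Col6a4 and Col4a6 stood at −0.38 and 0.65. Lamb1, the gene that fell in F9, differed by 0.21 in liver (−0.33 to 0.76), Lama1 by 0.51 (−0.84 to 1.87) and Lamc1 by 0.01 (−0.56 to 0.58). Nid1 differed by −0.08 (−0.55 to 0.38), Hspg2 by 0.35 (−0.27 to 0.97) and Sparc by −0.17 (−0.83 to 0.48).

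**Figure D5:**
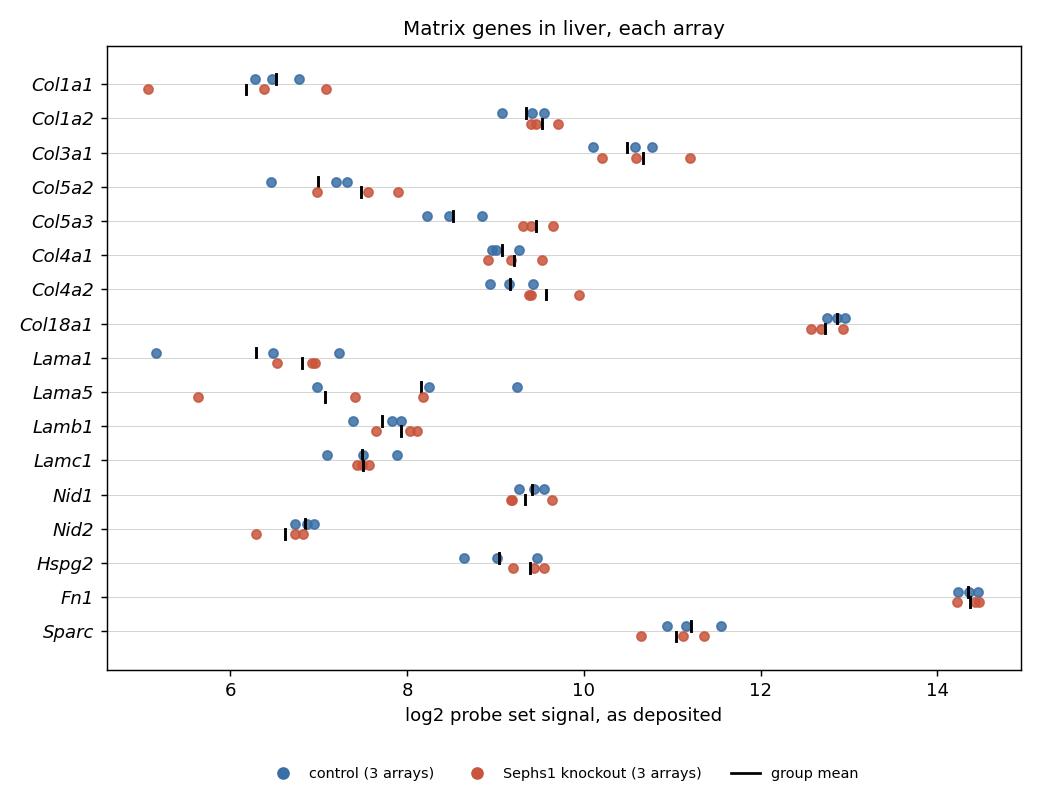
Log2 probe set signal of the main matrix genes in liver on each array, control and knockout (3 arrays each), with group means as bars; levels of different genes are not comparable. The groups overlap for all genes shown except Col5a3, and Fn1 sits near 14.35 in controls and 14.37 in knockout livers.

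The cell type and technical measures of liver were set beside these values. The 11 stellate cell markers, which mark the main collagen-producing cells, averaged 8.92 in controls (8.70 to 9.14) and 9.14 in knockout livers (8.85 to 9.40), with 5 positive and 6 negative differences and an exact two-sided permutation p of 0.4. Among the stellate genes Lrat stood at −0.47, Pdgfrb at −0.29, Reln at −0.03 and Hand2 at −0.04. Ngfr stood at 1.12, Des at 1.06, Tagln at 0.87 and Acta2 at 0.31, the last 3 being contractile and cytoskeletal genes. Knockout arrays lay wholly above controls for Tagln and wholly below for Pdgfrb, and no stellate marker passed (adjusted p = 0.591 for Tagln). The hepatocyte list mean was higher by 0.26, and knockout arrays lay wholly above controls for 5 of the 9 markers. That held for 8.42% of all genes and for 968 of the 9096 brighter than the median. The spiked hybridisation controls were higher by 0.69 and the actin 3′ minus 5′ signal by 0.19 (1.15 in controls, 1.34 in knockout livers). The list mean and these measures were each at the smallest exact p of 0.1. The GAPDH 3′ minus 5′ signal differed by −0.01 (exact permutation p = 0.6). The part of these measures was not tested. The second knockout liver was the highest array for 12 of the 24 members brighter than the median gene, or 50%, where this held for 19.2% of all such genes. Without it the median over members was 0.09. None of the lists of collagen processing (26 genes), receptors (23), degradation (19), TGF-beta signalling (18) and other matrix proteins (30) held a gene that passed in liver. An unadjusted p under 0.05 was reached by 0, 0, 4, 0 and 1 of them, where 7.28% of all genes reached it. Of the 4 degradation genes 3 were higher and 1 lower. The lower one was Mmp19, at 8.03 in controls and 4.44 in knockout livers, a difference of −3.59 (limma adjusted p = 0.194).

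Of the 57 members 40 had positive differences in liver and 21 in F9, where 54.2% and 46.8% of all genes did. Side by side, 15 members had positive differences in both tissues and 11 negative in both. Another 25 were higher in liver and lower in F9, and 6 the reverse. The same counts were not made over all genes, so they cannot set matrix genes apart from other genes. The brightest probe set was the same in both tissues for 42 of the 57.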

How the data were processed

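The deposited values are log2 probe set signals that the authors made from 12 Affymetrix arrays, 6 of liver and 6 of F9 cells. Per the labels' protocols, 100 ng of RNA per array was amplified with a 3′ in vitro transcription kit. Among the tools, R 3.0.1 and affy 1.38.1 are listed per the submitters' processing notes, and the summary and normalization method is not given in the sources used here. Liver and F9 were deposited as separate matrices and were tested apart. Of 45101 probe sets, 9211 without a symbol, 932 with several genes and 64 array controls, most of them without a symbol, were left out, and the brightest of the 34945 others stood for each gene. Control and treated arrays were compared with limma 3.58.1 (lmFit and eBayes, R 4.3.3), with Benjamini-Hochberg adjustment over 18193 genes and a threshold of 0.05. The procedure was tested on simulated data. Named genes are those that passed, up to 5 in each direction with the smallest p, a set of core matrix genes, and listed pathway genes that passed. Members and lists were chosen with earlier results of these data known. The number of arrays, 3 in a group, limits the precision. Alternatives were a replicate block, single arrays left out, quantile normalization, median centring, filters on dim genes, the mean of probe sets, an intensity trend, array weights and single probe sets.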

Additional observations from a re-analysis of the deposited data

Results flagged for a closer look

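Col5a3 was picked out because its groups did not overlap in either tissue and lay in opposite directions, which held for 1 of the 57 members. The share of all genes for which this held was not counted. All 3 knockout livers lay above all 3 control livers, with a difference of 0.94 log2 units, and all 3 F9 knockdown samples lay below all 3 F9 controls, with a difference of −0.25. Neither passed an adjusted p under 0.05, and the difference between the tissues was not tested. Over all genes, 8.42% lay wholly above controls in liver and 15.7% wholly below controls in F9. A second and dim Col5a3 probe set stood at −0.55 in liver and −0.02 in F9.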

How the results depend on the processing

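In liver no matrix gene passed in any of the 14 alternatives, and the median over members ran from 0.09 to 0.23. In F9 the number of members that passed was 1 in the analysis reported and 0 with the replicate block, where Lamb1 had an adjusted p of 0.134. It was 0 to 2 when single arrays were left out. It was 2 after median centring, without the dimmest 25% of genes and with an intensity trend, 5 without the dimmest 50% and with array weights, and 0 when probe sets of a gene were averaged. Lamb1 kept a negative difference in all 14. Leaving out dim genes shortens the list over which p-values are adjusted, and for the others the cause was not tested. Replicate numbers did not pair the samples: correlations of same-numbered deviations were −0.05, 0.01 and −0.0045 in liver and −0.22, 0.01 and −0.15 in F9. Over all genes the count that passed ran from 0 to 89 in liver (8 reported) and from 524 to 2285 in F9 (1310 reported). For Lamb1 and the pathway genes that passed in F9, opposite-sign probe sets were 0.18 (Lamb1), 0.0045 (Itga3) and 0.11 (Timp2). Matrix genes that did not pass also had probe sets of opposite sign in F9. The median within-group SD was 0.62 for members dimmer than the median gene in liver and 0.26 for the brighter ones.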
